A study of Mus musculus with 29 samples.

Results

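The genes described here were 10 costimulatory receptors and ligands, Cd28, Icos, Icosl, Cd226, Tnfrsf9, Cd40, Cd40lg, Cd27, Cd70 and Tnfsf4, which were taken by symbol from the 24421 rows of the count table. All 10 were in the table, and 20929 of its genes had at least 1 count. The libraries were bulk RNA-seq of 29 mice in 7 groups, 1 library per mouse. The mice were female C57BL/6J, 5 to 6 weeks old, and all received an IP injection of YTN16, a transplantable mouse gastric cancer cell line, on day 0. At day 21 there were 5 untreated and 5 dual ICI mice, injected on days 5, 8 and 12. At day 35 there were 5 untreated, 5 anti-PD1, 4 anti-CTLA4 and 5 dual ICI mice, injected also on days 21 and 28. According to the study's text, a further anti-CTLA4 mouse died before autopsy and was left out. Anti-PD1 was given at 10 mg/kg and anti-CTLA4 at 5 mg/kg, dual ICI was both antibodies together, and untreated mice received PBS. Of the dual ICI mice at day 35, mice 1 and 5 were uncured (n = 2) and mice 2, 3 and 4 were cured (n = 3). The labels do not give this outcome, which was taken by matching the numbers in the library titles to the mouse numbers in the study's text. The study's text states that 1 of the 5 anti-PD1 mice was cured but does not give its number. The outcome of single anti-PD1 mice was therefore not used, and the group was kept whole. The tissue was stripped peritoneum with or without tumor nodules, which the labels call tumor tissue, so that a library held transplanted tumor cells, immune cells and peritoneal wall in amounts that differed between mice.

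Library totals lay between 25989217 and 31219650 counts, of which the 10 genes together took between 561 and 2373, so that counting error was large for the rarer members. All 12 gastric epithelium markers looked for, which mark the tumor cells here, were in the table. They took 0.0013% to 0.0066% of the counts of the cured mice, with Tff1, Gkn1, Gkn2 and Muc5ac at 0 in all 3, and 0.0913% to 0.379% in untreated mice at day 35. The 10 skeletal muscle markers took 15.0% to 16.6% of the counts of cured mice, against 3.94% to 14.2% in untreated mice at day 35 and 3.80% to 5.46% in uncured mice. A pair of libraries stood apart from their groups. Anti-PD1 mouse 5 had 0.0043% gastric markers, within the range of the cured mice, and 14.9% muscle markers. Untreated mouse 2 at day 35 had 0.0913% gastric and 14.2% muscle markers. Values that moved most without one of these mice are given with and without it. TMM scaling, which sets library sizes so that most genes do not change, raised the cured mice by 0.56 on the log2 scale relative to untreated mice at day 35 and lowered the uncured mice by 0.21, and fold changes are relative to these shifts. The labels carry different series of sequencing service numbers for the libraries of day 21 and day 35, and day and series cannot be told apart.

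T cells need a costimulatory signal beside that of the antigen receptor to divide, survive and secrete cytokines. CD28 binds CD80 and CD86 on antigen presenting cells, and ICOS binds ICOSL, and both receptors signal through PI3K. The TNF receptor family members 4-1BB (Tnfrsf9), CD27, OX40 and CD40 bind trimeric ligands of the TNF family and signal through TRAF adaptors to NF-kB. CD226 (DNAM-1) on T and NK cells binds PVR and nectin-2 and shares these ligands with the inhibitory receptor TIGIT, in the way that CTLA4 shares CD80 and CD86 with CD28. In bulk tissue, fewer cells of a type and less RNA per cell cannot be told apart.

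Levels are given as CPM, read counts relative to the TMM-scaled size of the library. Per kilobase of exon, which allows genes to be compared, the ligand Icosl had the highest mean level of the 10 in all 7 groups, from 3.43 CPM per kb in cured to 5.83 in uncured mice. Cd40 or Tnfrsf9 came next in 6 groups, and Cd28 with 1.04 CPM per kb came next in cured mice. Cd40lg, Cd70 and Tnfsf4 had at most 0.28 CPM per kb in any group. In counts, Cd40lg had 0 to 13, Cd70 0 to 6 and Tnfsf4 0 to 10 per library, and these 3 did not pass edgeR's filter on low counts in most comparisons, which left 7 members tested (8 with Cd40lg in the comparisons of dual ICI across the days).

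**Figure D1:**
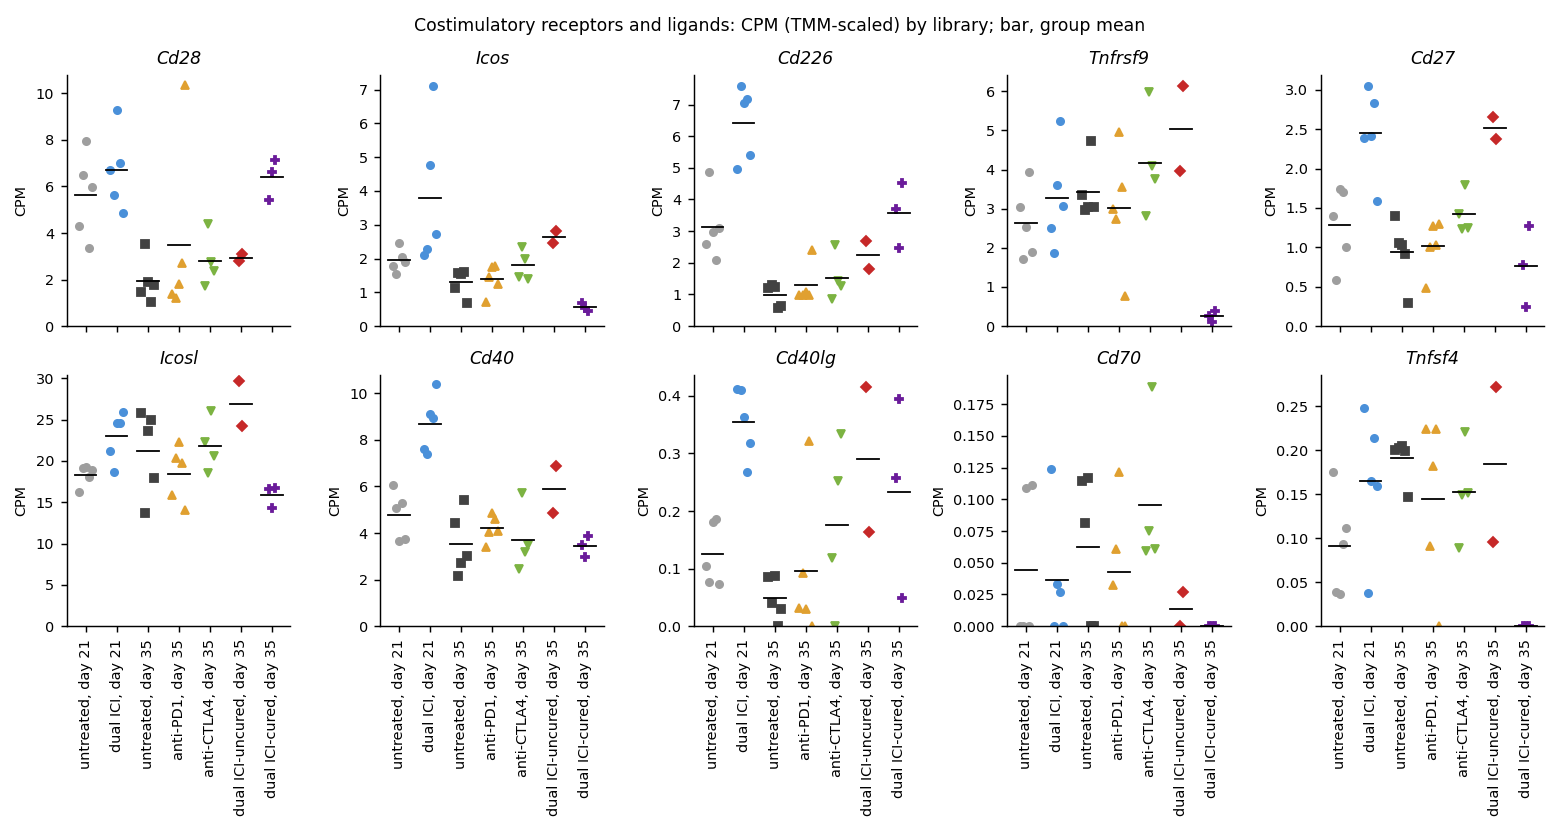
CPM on TMM-scaled library sizes (vertical axes, linear from 0) of the 10 genes in the 29 libraries, in 7 groups along the horizontal axis; points are mice and bars are group means. Cd40 and Cd226 were highest at day 21 under dual ICI, and Tnfrsf9 was lowest in the 3 cured mice, between 0.0984 and 0.390 CPM.

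Early in treatment, the question was which of these genes moved under dual ICI before the outcome was apparent. At day 21, all 7 members tested had a higher fitted level in dual ICI than in untreated mice, with a median log2 fold change of 0.87 against 0.02 over all genes tested, and none of them passed edgeR's adjusted p under 0.05, a threshold that 0.574% of 15503 genes passed. Of these 89 genes 73 were higher, against 14 of 15 on library totals alone and 324 of 502 with DESeq2. The number of genes called rested on single mice, being 13, 52, 34, 23 or 6 without untreated mouse 1, 2, 3, 4 or 5 and 16 or 30 without dual ICI mouse 3 or 5. At an unadjusted p under 0.05, 5 of the 7 passed, against 10.7% of all genes. The T cell markers moved in the same direction. Their summed level over 7 of 9 markers found in the table was 10.9 to 19.7 CPM in untreated and 29.7 to 46.6 CPM in dual ICI mice, and the part of this in the members' differences was not tested.

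Cd40, the receptor on dendritic cells, macrophages and B cells through which T helper cells license antigen presentation, was the one member of the 7 tested whose groups did not overlap at day 21, where 1.93% of all genes were likewise higher in every dual ICI mouse. It lay at chr2:165055627-165072948. Its level was 6.05, 5.07, 3.66, 5.31 and 3.74 CPM in untreated mice 1 to 5 and 7.59, 7.37, 9.09, 8.96 and 10.4 CPM in dual ICI mice 1 to 5. The lowest treated mouse thus stood above the highest untreated one. The log2 fold change was 0.87 (SE 0.18), with an edgeR adjusted p of 0.0619 and a DESeq2 adjusted p of 0.00032. Macrophage markers, over all 7 genes, also stood higher, at 1035 to 1156 CPM in untreated and 1195 to 2105 CPM in dual ICI mice. The sums of the other 2 cell types overlapped. Dendritic cell markers were at 81.1 to 106 CPM in untreated and 95.5 to 132 CPM in dual ICI mice. B cell markers were at 2.58 to 5.53 and 3.93 to 7.14 CPM. The part of these cells in the Cd40 difference was not tested.

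Cd226 had the largest of the 7 differences at day 21. Its level was 2.59, 4.88, 2.97, 2.08 and 3.11 CPM in untreated mice and 4.95, 7.60, 7.04, 7.17 and 5.40 CPM in dual ICI mice. Untreated mouse 2 came within 0.1 CPM of dual ICI mouse 1, and the pair overlapped when only the 10 libraries of day 21 were scaled together, while the other 4 untreated mice stood well below. The log2 fold change was 1.04 (SE 0.24), with an edgeR adjusted p of 0.0895, and Cd226 was called by DESeq2 (adjusted p = 0.0017) and by edgeR without untreated mouse 2 (log2 fold change 1.26, adjusted p = 0.0373). Icos, an inducible receptor of activated T cells, had values of 1.78, 1.55, 2.47, 2.05 and 1.89 CPM in untreated mice and 2.10, 2.27, 4.76, 7.11 and 2.73 CPM in dual ICI mice. Dual ICI mice 3 and 4 were high and the other three lay near the untreated range, so that the groups overlapped (log2 fold change 0.98, SE 0.34, edgeR adjusted p = 0.31). Cd27, a receptor of naive and memory T cells that keeps them alive, had a difference of similar size (0.93, SE 0.30, edgeR adjusted p = 0.25). Its level ran from 0.580 to 1.74 CPM in untreated and from 1.59 to 3.05 CPM in dual ICI mice.

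The remaining tested members differed less. Icosl, the ligand on antigen presenting cells and many stromal cells, was at 16.3 to 19.3 CPM without and 18.7 to 26.0 CPM with dual ICI (log2 fold change 0.33, SE 0.12, edgeR adjusted p = 0.32). Cd28 was at 3.35 to 7.94 CPM and 4.86 to 9.29 CPM (0.26, SE 0.26, edgeR adjusted p = 0.82), and Tnfrsf9, which is induced on activated T and NK cells, at 1.70 to 3.94 CPM and 1.86 to 5.24 CPM (0.33, SE 0.31, edgeR adjusted p = 0.81). Neither separated the groups. Cd40lg, the ligand of CD40 on activated CD4+ T cells, was too low for the filter, but its counts were 3, 2, 5, 6 and 2 in untreated and 10, 11, 11, 10 and 10 in dual ICI mice. Every dual ICI mouse was above every untreated mouse. Without the filter its log2 fold change was 1.45 (SE 0.40) with an edgeR adjusted p of 0.18, and DESeq2 gave an adjusted p of 0.0998. Tnfsf4 (OX40 ligand), with 1 to 5 and 1 to 8 counts, and Cd70 (the ligand of CD27), with 0 to 3 in both groups, were near the level at which single reads decide.

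Among the partners of these genes, a list of 20 other costimulatory and coinhibitory genes of which 19 were in the table, 0 of the 18 tested were called at day 21, and 4 were called by DESeq2. Cd86 (log2 fold change 0.98, SE 0.21, edgeR adjusted p = 0.06) and Cd96, another receptor for PVR (1.6, SE 0.33, adjusted p = 0.0585) did not overlap between the groups. Cd80, the other ligand of CD28, had a difference of 0.37 (SE 0.25, edgeR adjusted p = 0.66), and Tigit, the inhibitory receptor opposite CD226, one of 1.51 (SE 0.37, adjusted p = 0.11). In the list of 25 signalling genes, 0 of 24 tested were called by edgeR and 4 by DESeq2. In 5 of the 24 every dual ICI mouse was above every untreated mouse, which was so for 1.93% of all genes. The medians were 0.39 for the partners and 0.09 for the signalling genes, against 0.02 over all genes tested.

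At day 35 the question was whether the mice that kept their tumors under dual ICI differed from untreated mice of that day. Again all 7 members tested were fitted higher in the 2 uncured mice, with a median log2 fold change of 0.73 against -0.01 over all genes tested. None was called, and no gene was: 0% of 16156 genes passed the adjusted p in this comparison of 2 mice with 5. DESeq2 called 0 members and 17 genes. The smallest edgeR adjusted p of any member was 0.734, while 3 of 7 members passed an unadjusted p under 0.05, against 4.87% of all genes. Icos, Cd226 and Cd27 were higher in both uncured mice than in every untreated mouse, which was so for 8.88% of all genes. So was Cd40lg, below the filter, with 13 and 6 counts in uncured and 0 to 3 in untreated mice (log2 fold change without the filter 2.40, SE 0.84, edgeR adjusted p = 0.76).

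Cd27 was at 1.40, 1.06, 1.02, 0.915 and 0.293 CPM in untreated mice 1 to 5 and at 2.66 and 2.37 CPM in uncured mice 1 and 5 (log2 fold change 1.41, SE 0.48). Icos was at 1.11, 1.58, 1.55, 1.59 and 0.675 CPM in untreated and 2.46 and 2.81 CPM in uncured mice (1.01, SE 0.38). Cd226 was at 1.20, 1.30, 1.23, 0.557 and 0.645 CPM in untreated and 2.69 and 1.80 CPM in uncured mice (1.16, SE 0.42). For these 3 receptors both uncured mice stood apart from the untreated range, and with 2 mice the spread of the uncured group is poorly known. Cd40 (0.73, SE 0.37), Cd28 (0.59, SE 0.45), Tnfrsf9 (0.56, SE 0.30) and Icosl (0.34, SE 0.25) overlapped between the groups. Without untreated mouse 2, the Cd28 difference was 0.93 (SE 0.31) and the edgeR adjusted p was 0.769 for it. The T cell markers summed to 12.7 to 26.7 CPM in untreated and 34.0 to 34.2 CPM in uncured mice, and their part in these differences was not tested. Of the partners 0 of 18 and of the signalling genes 0 of 24 were called. Cd80 (0.60, SE 0.33) and Cd86 (0.50, SE 0.24) were higher in both uncured mice than in all untreated ones, each with an edgeR adjusted p of 0.734.

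The change under dual ICI could be compared between the days in 1 model. Its interaction term was called for 0 of 8 members, with 0% of 16542 genes called, and 0 members passed an unadjusted p under 0.05, against 6.35% of genes, and DESeq2 called 0 members and 1 gene. The interaction was 0.35 (SE 0.49) for Cd28, or 0.66 (SE 0.41) without untreated mouse 2 of day 35, 0.05 (SE 0.53) for Icos, 0.13 (SE 0.44) for Cd226 and 0.49 (SE 0.56) for Cd27. With these errors a difference between the days of the size of the effects themselves was not detectable.

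Neither antibody alone separated any member from untreated mice. Under anti-PD1, 0 of 7 members were called, with 0% of 15640 genes called, and 0 passed an unadjusted p under 0.05, against 1.31% of genes. Under anti-CTLA4, 0 of 7 members were called, with 0% of 15781 genes called, and 0 members passed the unadjusted threshold, against 0.811% of genes. DESeq2 called no gene in either. All comparisons within day 35 share the same 5 untreated mice. The median difference of the members was 0.11 under anti-PD1 and 0.45 under anti-CTLA4, and every member overlapped between the groups in both. The partner and signalling lists held 0 called genes in either comparison.

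Cd28 had the widest spread under anti-PD1. It was at 1.38, 1.19, 1.79, 2.73 and 10.3 CPM in mice 1 to 5 and mouse 5 stood far above the other 4. The log2 fold change was 0.82 (SE 0.62) with this mouse and -0.14 (SE 0.38) without it. The same mouse had the most Cd226 in its group (2.39 CPM, the others 0.978 to 1.09) and the least Tnfrsf9 (0.780 CPM, the others 2.75 to 4.97). Leaving it out turned Cd226 from 0.36 (SE 0.36) to 0.02 (SE 0.31) and Tnfrsf9 from -0.18 (SE 0.38) to 0.05 (SE 0.24), with no call in either fit. Under anti-CTLA4 the largest differences were those of Cd226 (0.61, SE 0.39), Cd27 (0.58, SE 0.38) and Cd28 (0.51, SE 0.39), each with an edgeR adjusted p near 1. Without untreated mouse 2, Cd28 had the largest of the 3 (0.85, SE 0.33, edgeR adjusted p = 0.9999), beside Cd226 (0.73, SE 0.41) and Cd27 (0.64, SE 0.41), and under anti-PD1 the Cd28 difference was 1.17 (SE 0.65).

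**Figure D2:**
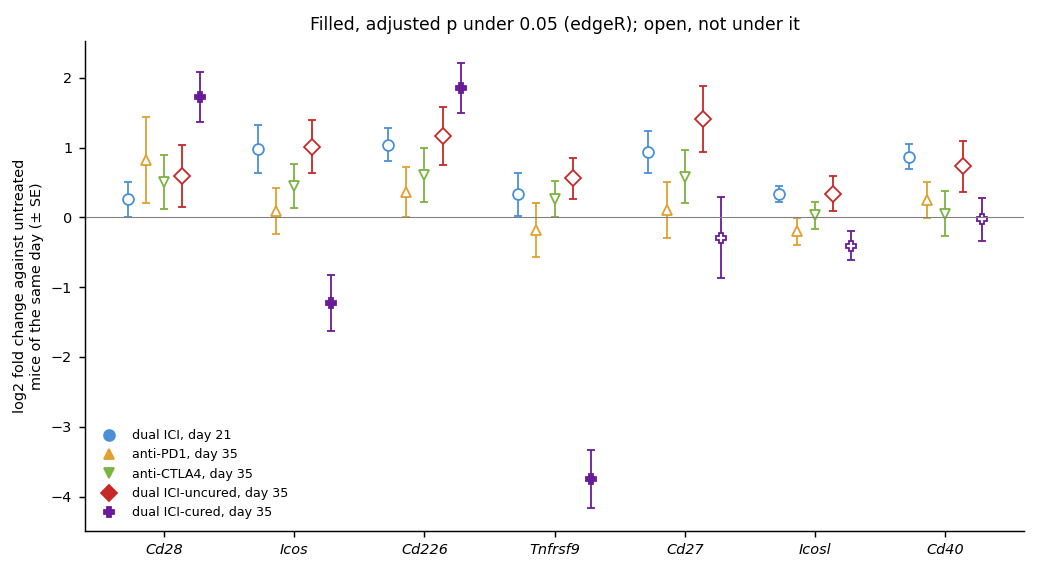
Log2 fold changes (vertical axis, error bars are SE) of the 7 members tested, against untreated mice of the same day, in 5 comparisons; filled symbols have an edgeR adjusted p under 0.05. The 4 filled symbols are those of cured mice, Cd28 and Cd226 above 0, Icos and Tnfrsf9 below it.

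Cured mice were compared with untreated mice of the same day to describe these genes once the tumor was gone. The members split: Cd28 and Cd226 rose, Icos and Tnfrsf9 fell, and Icosl, Cd40 and Cd27 did not pass the test. These 4 calls among 7 members stood in a comparison in which 44.7% of 15816 genes were called, so that a call as such was common. The 7067 genes became 4491 without cured mouse 3 and 4515 without cured mouse 4. Non-overlap was also common, with 19.9% of genes higher and 27.1% lower in every cured mouse, against 2 members higher and 2 lower. Of the 7067 genes called, 2848 were higher, and 1187 of 8573 when libraries were scaled by their totals alone, while the 2 members that rose were called higher under both scalings.

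Tnfrsf9 had the largest change of the members that passed the filter. It was at 3.34, 2.96, 3.05, 4.73 and 3.05 CPM in untreated mice 1 to 5 and at 0.258, 0.0984 and 0.390 CPM in cured mice 2, 3 and 4, which were 5, 2 and 8 counts. No cured mouse came near the untreated range. The log2 fold change was -3.75 (SE 0.42, edgeR adjusted p = 0.00022), and over all alternatives of this comparison that tested it the change lay between -4.31 and -3.38. It lay at chr4:150914562-150946102 on the plus strand within the span of Camta1, a gene on the other strand, and whether the counting used strand is not given in the sources used here. Its promoters are shown because 4-1BB is an NF-kB target and it changed most of the members that passed the filter. RefSeq gave promoter windows, 250 bases before to 50 after a start, for 3 of the 10 members (Tnfrsf9, Cd27 and Icosl). Capitals mark GGAAA (the core of NFAT sites), TGANTCA (AP-1) and GGGNNTTCC (NF-kB), searched on both strands, and GGGNNTTCC and GGAAA can overlap. The windows are written 5′ to 3′ on the strand of the gene, build GRCm38.p6, at chr4:150919905-150920204, chr4:150927749-150928048 and, for Cd27, a TNF receptor that did not pass the test, on the minus strand, chr6:125236978-125237277.
Tnfrsf9, first start: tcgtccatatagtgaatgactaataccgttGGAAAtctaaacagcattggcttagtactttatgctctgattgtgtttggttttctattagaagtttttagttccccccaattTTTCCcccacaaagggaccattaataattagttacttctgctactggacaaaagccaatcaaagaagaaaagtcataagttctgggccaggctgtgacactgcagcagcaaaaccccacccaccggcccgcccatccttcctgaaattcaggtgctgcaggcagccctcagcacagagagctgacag
Tnfrsf9, second start: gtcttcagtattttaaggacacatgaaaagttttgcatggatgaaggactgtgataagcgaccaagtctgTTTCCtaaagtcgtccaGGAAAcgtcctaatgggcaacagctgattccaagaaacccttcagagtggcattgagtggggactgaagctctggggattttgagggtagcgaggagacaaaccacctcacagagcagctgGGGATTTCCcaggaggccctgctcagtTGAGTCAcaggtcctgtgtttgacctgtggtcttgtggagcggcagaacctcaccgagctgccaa
Cd27: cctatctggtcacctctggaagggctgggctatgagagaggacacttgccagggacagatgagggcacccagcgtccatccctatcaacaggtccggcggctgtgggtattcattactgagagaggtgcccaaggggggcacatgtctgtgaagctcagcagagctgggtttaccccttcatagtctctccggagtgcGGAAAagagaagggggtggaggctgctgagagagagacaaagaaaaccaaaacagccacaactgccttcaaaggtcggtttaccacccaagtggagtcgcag
The second Tnfrsf9 window held 3 GGAAA, 1 TGANTCA and 1 GGGNNTTCC, the first 2 GGAAA and the Cd27 window 1. The Icosl window, which is not shown, held no match to any of the 3. Of 32851 promoter windows of this length, 61.3% held GGAAA, 7.81% TGANTCA and 5.82% GGGNNTTCC. A match is a description of letters and not a measured binding site.

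Icos, at chr1:60977927-61000320 beside Cd28, was at 0.675 to 1.59 CPM in untreated and at 0.670, 0.541 and 0.439 CPM in cured mice, from 13, 11 and 9 counts. The highest cured mouse lay just under the lowest untreated mouse. The log2 fold change was -1.23 (SE 0.40, edgeR adjusted p = 0.0311). The call rested on single mice, and the adjusted p was 0.0614, 0.0927 or 0.115 without cured mouse 2, 3 or 4, and 0.0631 or 0.056 without untreated mouse 3 or 4. A predicted gene, Gm37039, overlaps Icos on the same strand.

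Cd28, at chr1:60716800-60773359, went the other way. It was at 1.49, 3.53, 1.87, 1.03 and 1.76 CPM in untreated mice and at 5.41, 6.64 and 7.12 CPM in cured mice. All 3 cured mice stood above the highest untreated mouse, number 2. The log2 fold change was 1.72 (SE 0.36, edgeR adjusted p = 0.0049), 2.06 (SE 0.25) without untreated mouse 2 and 1.21 with libraries scaled by their totals alone. Cd226, at chr18:89176967-89272229, was at 3.71, 2.46 and 4.54 CPM in cured mice, above the untreated range of 0.557 to 1.30 CPM (log2 fold change 1.85, SE 0.36, edgeR adjusted p = 0.0032, and 1.28 on library totals alone). Both calls held under every alternative run that tested them. The T cell markers summed to 7.97 to 10.9 CPM in the same cured mice, against 12.7 to 26.7 CPM in untreated mice at day 35.

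The members were also set beside the T cell receptor complex. Which cells the Cd28 reads came from was not tested. Cd3d, Cd3e and Cd3g, which every T cell needs for its antigen receptor, summed to 40 to 75 counts per cured mouse, 132 to 254 per untreated mouse at day 35 and 457 to 522 per uncured mouse. There were 1.72 to 3.38 Cd28 counts for each of these Cd3 counts in cured mice, 0.10 to 0.66 in untreated mice at day 35 and 0.19 to 0.22 in uncured mice. In untreated mice at day 21 the ratio was 0.60 to 2.05, in dual ICI mice at day 21 0.28 to 0.46, and in anti-CTLA4 mice 0.28 to 0.52. Anti-PD1 mice 1 to 4 were at 0.25, 0.20, 0.24 and 0.63. Anti-PD1 mouse 5, at 2.65, lay within the range of the cured mice, and so did untreated mouse 2 of day 21, at 2.05. The mean log2 ratio of Cd226 to Cd3 was 0.29 ± 0.04 (SD, n = 3) in cured and -2.85 ± 0.84 (SD, n = 5) in untreated mice at day 35, while that of Icos hardly differed (-2.33 ± 0.60 and -2.44 ± 0.55). Cd27 per Cd3 was -2.13 ± 0.70 in cured and -3.0 ± 0.87 in untreated mice. Tnfrsf9 per Cd3 was lower in cured mice, at -3.55 ± 0.44 against -1.01 ± 0.10. Relative to Ptprc (CD45), which all leukocytes carry, Cd28 was at -2.79 ± 0.05 in cured and -4.57 ± 0.98 in untreated mice and Tnfrsf9 at -7.50 ± 0.96 and -3.65 ± 0.61.

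**Figure D3:**
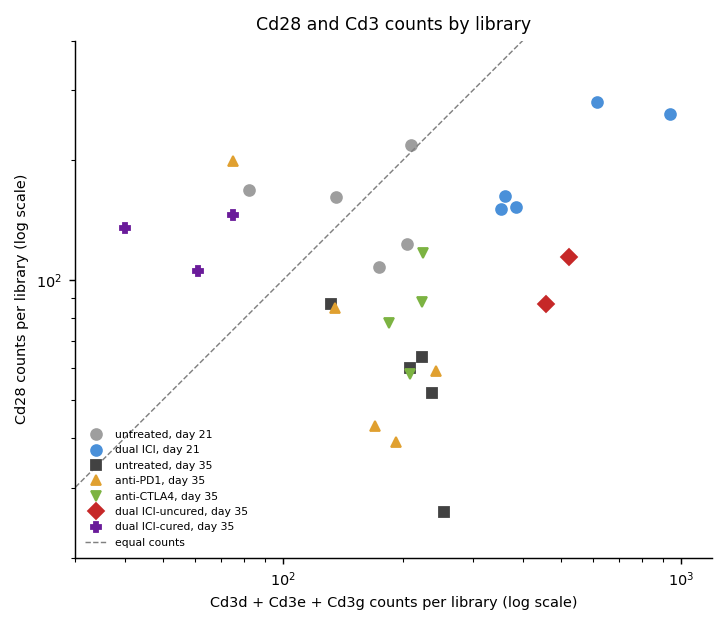
Cd28 counts (vertical) against the summed Cd3d, Cd3e and Cd3g counts (horizontal) of the 29 libraries, both on log axes, by group; the dashed line marks equal counts. The 3 cured mice (1.72 to 3.38 Cd28 counts per Cd3 count), anti-PD1 mouse 5 (2.65) and 3 untreated mice of day 21 lie above the line, and both uncured mice lie far below it.

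The share of skeletal muscle markers also differed between libraries, and its part in the levels of these genes was not tested. Untreated mouse 2 at day 35, with 14.2% muscle markers, had the most Cd28 of its group (3.53 CPM) but 2.96 CPM of Tnfrsf9, close to the others. In anti-PD1 and anti-CTLA4 mice too, the mouse with the most muscle markers had the most Cd28. These were anti-PD1 mouse 5 (14.9%, 10.3 CPM) and anti-CTLA4 mouse 2 (11.0%, 4.37 CPM). It was not so in either group of day 21, nor in uncured or cured mice. Cured mice with 15.0% to 16.6% muscle markers had 0.0984 to 0.390 CPM of Tnfrsf9. Dual ICI mouse 1 at day 21, at 14.0% muscle markers, had 6.73 CPM of Cd28 and 2.52 CPM of Tnfrsf9, each within the range of its group.

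**Figure D4:**
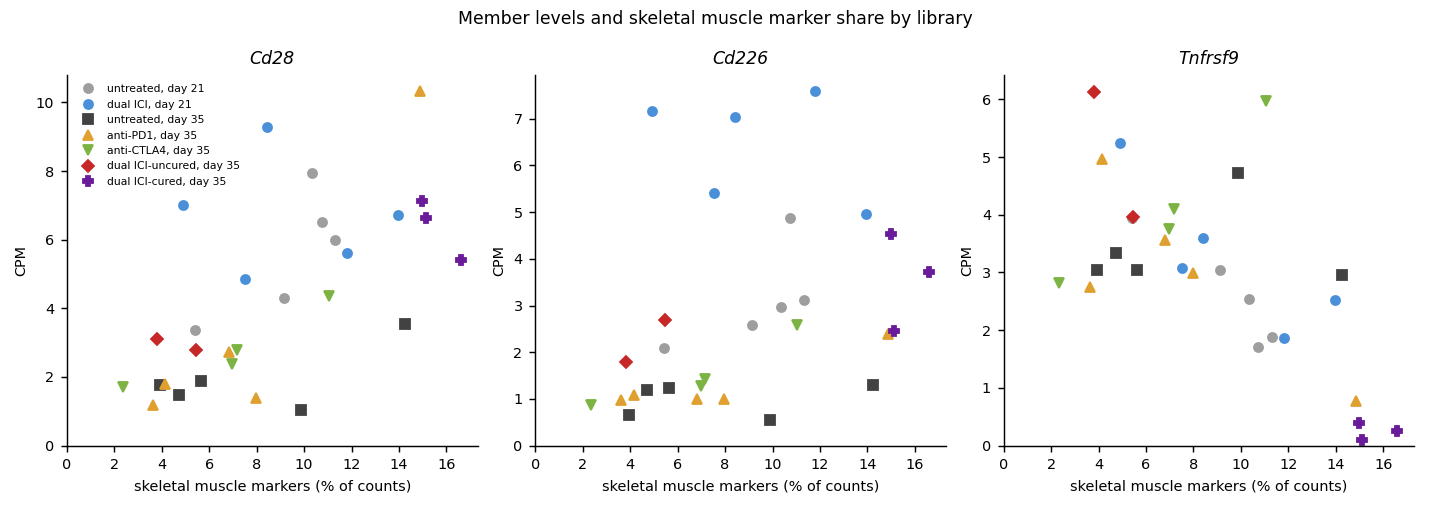
CPM of Cd28, Cd226 and Tnfrsf9 (vertical axes) against the share of counts in 10 skeletal muscle markers (horizontal axes, percent) in the 29 libraries, by group. The cured mice sit at 15.0% to 16.6% together with anti-PD1 mouse 5 at 14.9%, with low Tnfrsf9 and with Cd28 between 5.41 and 10.3 CPM.

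The other members differed less in cured mice. Icosl was at 16.6, 14.3 and 16.7 CPM against 13.7 to 25.8 CPM in untreated mice (log2 fold change -0.41, SE 0.21, edgeR adjusted p = 0.14). It was called without untreated mouse 2 (-0.52, SE 0.15, edgeR adjusted p = 0.0168) and on library totals alone (-1.02, adjusted p = 0.0192). Cd40 was at 3.50, 2.95 and 3.85 CPM, inside the untreated range of 2.15 to 5.41 CPM (-0.03, SE 0.31), and Cd27 at 0.773, 0.246 and 1.27 CPM, inside that of 0.293 to 1.40 CPM (-0.29, SE 0.58). Cd70 and Tnfsf4 had no count in any cured mouse. Over the 3 cured libraries together, 3 counts would be 0.0498 CPM, so that Tnfsf4 was at least 3.83-fold lower than its mean of 0.191 CPM in untreated mice at day 35. Cd70, at 0.0625 CPM in untreated mice, would be 1.26-fold lower at the same floor, a difference of a few counts. Without the filter Cd70 was not called (edgeR adjusted p = 0.17). Tnfsf4 did not pass the filter, and without it edgeR's adjusted p was 0.0079, while DESeq2 gave 0.006. Cd40lg had 5, 8 and 1 counts in cured and 0 to 3 in untreated mice, and was called higher only in the fit of all 29 libraries, in which it passed the filter.

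Among the partners in cured mice, 8 of 18 tested fell and 0 rose, a share called near the 44.7% of all genes, of whose 7067 calls 4219 were lower. The largest changes were in ligands of the TNF family, Tnfsf18 (the GITR ligand, -5.30), Tnfsf15 (TL1A, -3.65) and Tnfsf8 (the CD30 ligand, -2.48), each of which fell as Tnfrsf9 did. Tigit fell by 2.24 and Ctla4, which lies between Cd28 and Icos on chromosome 1 and competes with CD28 for its ligands, fell by 2.09 on the log2 scale. Ctla4 was at 0.412, 0.246 and 0.390 CPM in cured and 0.792 to 2.58 CPM in untreated mice. Of the 3 neighbours, Cd28 therefore rose while Ctla4 and Icos fell. In the signalling list, 11 of 24 fell and 4 rose. Traf1 (-1.67), Relb (-1.50) and Nfkb2 (-1.23), of the NF-kB branch that TNF receptors use, were among those that fell, as was Lck (-1.27), a kinase that starts antigen receptor signalling. Prkcq (1.28), Pik3cd (0.88), Nfatc1 (0.78) and Nfatc2 (0.64) rose. Prkcq, which acts below CD28 in T cells, is also abundant in skeletal muscle, and its level in cured mice was 120 to 143 CPM against 22.1 to 109 CPM in untreated mice. Untreated mouse 2 had the 109 CPM. The medians were -0.29 for members, -0.84 for partners and -0.38 for signalling genes, against -0.05 over all genes tested.

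Uncured and cured mice, which had the same antibodies, differed in most of the genome. In this comparison 70% of 15796 genes were called, 42.7% were higher and 38.3% lower without overlap. Of 7 members, 5 were called higher in uncured mice and 1 lower, and the same 6 did not overlap. Tnfrsf9 was at 3.97 and 6.13 CPM in uncured mice (log2 fold change 4.31, SE 0.44, edgeR adjusted p = 3.6e-05). Icos (2.24, SE 0.33), Cd27 (1.70, SE 0.49), Cd40 (0.76, SE 0.24) and Icosl (0.75, SE 0.13) were higher as well. Cd28, at 2.78 and 3.11 CPM in uncured mice, was lower (-1.13, SE 0.23, edgeR adjusted p = 0.0021). This direction was small once scaling was left to library totals (-0.35, SE 0.23, edgeR adjusted p = 0.19), and it was not called in a fit of all 29 libraries (-1.12, SE 0.65, adjusted p = 0.14). On totals alone 10127 of 12441 calls over all genes were higher in uncured mice, against 5831 of 11063 with TMM. Cd226 overlapped, at 2.69 and 1.80 CPM against 2.46 to 4.54 CPM (-0.69, SE 0.33, edgeR adjusted p = 0.0921), and was called without cured mouse 3 (-0.91, adjusted p = 0.0356). Its fitted difference on totals alone was 0.09, so that its direction turned with the scaling. Tnfsf4 had 3 and 10 counts in uncured and none in cured mice, and without the filter its edgeR adjusted p was 0.0333 and that of DESeq2 0.14. Cd40 was not called without cured mouse 3 (0.65, edgeR adjusted p = 0.0684) or uncured mouse 5 (0.48, adjusted p = 0.18), nor Cd27 without uncured mouse 1 (1.62, adjusted p = 0.0604). Of the partners, 14 of 18 were higher and 1 lower, and of the signalling genes 16 of 24 were higher and 5 lower. Cd80 (1.53) and Cd86 (0.74), the ligands of CD28, were higher in uncured mice while Cd28 was lower.

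With the 5 dual ICI mice at day 35 taken as 1 group, as the labels alone would have it, 0 of 7 members were called and 0% of 15588 genes. At an unadjusted p under 0.05, 2 members passed, Cd226 and Cd28, against 6.87% of genes. Cd226 was higher in each of the 5 than in every untreated mouse (log2 fold change 1.61, SE 0.35, edgeR adjusted p = 0.63), and DESeq2 called it (adjusted p = 0.0107). How many of all genes were likewise higher in each of the 5 was not counted. Cd28 had a difference of 1.36 (SE 0.40) and overlapped. Tnfrsf9 ran from 0.0984 to 6.13 CPM within this group (difference -0.65, SE 0.90).

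Untreated mice were also compared between the days. Of 7 members 2 were called, Cd28 and Cd226, both lower at day 35, in a comparison in which 10.8% of 15604 genes were called. These 1687 genes became 4915, 1078 or 724 without untreated mouse 2, 4 or 5 of day 35 and 735, 692, 854 or 654 without untreated mouse 1, 2, 3 or 5 of day 21. Cd28 was at 4.30, 6.50, 7.94, 3.35 and 6.00 CPM at day 21 and at 1.03 to 3.53 CPM at day 35 (log2 fold change -1.54, SE 0.34, edgeR adjusted p = 0.0202, and -1.87, SE 0.29, adjusted p = 0.002 without untreated mouse 2 of day 35). The highest mouse at day 35, mouse 2, was just over the lowest at day 21. Its call was lost without untreated mouse 5 at day 35 (edgeR adjusted p = 0.053) or untreated mouse 2, 3 or 5 at day 21 (adjusted p 0.0504, 0.0506 and 0.0516). Cd226 fell from 2.08 to 4.88 CPM at day 21 to 0.557 to 1.30 CPM at day 35 with no overlap (-1.66, SE 0.32, edgeR adjusted p = 0.0122). How many of all genes did not overlap between the days was not counted. Of the signalling list, Pik3cd (-0.50), Lcp2 (-0.61) and Nfatc1 (-0.66) fell and Relb (0.70) and Bcl2l1 (0.86) rose, and 0 of 18 partners were called.

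Against dual ICI mice at day 21, the uncured mice at day 35 had 1 of 8 members called, Cd226, where 5.31% of 16135 genes were called. Of these 857 genes 492 were higher in uncured mice, against 570 of 818 on library totals alone, 1369 of 3069 with DESeq2 and 199 of 237 in the fit of all 29 libraries. Only 0 or 3 genes were called without uncured mouse 1 or 5, and 32, 20, 3 or 4006 without dual ICI mouse 1, 2, 3 or 4 of day 21, so that this share rests on single mice. Cd226 was at 4.95 to 7.60 CPM at day 21 and at 2.69 and 1.80 CPM in uncured mice (log2 fold change -1.53, SE 0.30, edgeR adjusted p = 0.0374). This call was lost without either uncured mouse (edgeR adjusted p = 0.27 without mouse 1 and 0.30 without mouse 5), without dual ICI mouse 1, 2 or 3 at day 21 (0.0528, 0.0656 and 0.11), on library totals alone (-1.25, adjusted p = 0.0717) and in the fit of all 29 libraries (-1.52, adjusted p = 0.0656). Cd28 had a difference of -1.20 (SE 0.30, edgeR adjusted p = 0.0533), and was called without dual ICI mouse 4 or 5 at day 21 (0.028 and 0.0494). Both uncured mice lay below every dual ICI mouse of day 21 for Cd28, Cd226 and Cd40 (-0.57, SE 0.24, edgeR adjusted p = 0.15). The share of all genes that did so was not counted. Icos (-0.54, SE 0.50), Cd27 (0.02, SE 0.31), Icosl (0.22, SE 0.18), Tnfrsf9 (0.62, SE 0.38) and Cd40lg (-0.30, SE 0.49) overlapped. Of the signalling genes Relb and Bcl2l1 were called higher, and 0 of 19 partners were called. These comparisons share no libraries with each other, but day and sequencing series cannot be told apart in either.

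By mean level, the order of the 7 groups was as follows for Cd28, Cd226, Cd40, Tnfrsf9 and Icos. Cd28 was highest in dual ICI mice at day 21 (6.70 ± 1.68 CPM, SD, n = 5), cured mice (6.39 ± 0.88, n = 3) and untreated mice at day 21 (5.62 ± 1.82, n = 5), followed by anti-PD1 (3.49 ± 3.88, n = 5), uncured (2.95 ± 0.23, n = 2), anti-CTLA4 (2.81 ± 1.13, n = 4) and untreated mice at day 35 (1.94 ± 0.95, n = 5). Each group overlapped with the next in this order. Cd226 had its highest mean at day 21 under dual ICI (6.43 ± 1.17 CPM, n = 5), apart from the next group, cured mice (3.57 ± 1.04, n = 3), and ran down with overlap between neighbours to untreated mice at day 35 (0.986 ± 0.355, n = 5). For Cd40 the same group was highest (8.68 ± 1.23 CPM, n = 5), apart from uncured mice (5.88 ± 1.43, n = 2), and the rest overlapped. Tnfrsf9 ran from uncured mice (5.05 ± 1.53 CPM, n = 2) to untreated mice at day 21 (2.62 ± 0.91, n = 5) with overlap at each step, and cured mice (0.249 ± 0.146, n = 3) lay apart at the bottom. Icos likewise had cured mice apart and lowest (0.550 ± 0.116 CPM, n = 3).

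The genes most like each member across all 29 libraries were named from 16699 others by the Pearson correlation of log2 CPM, as a description whose points share groups and tissue makeup. For Cd28 they were Snap23 (0.94), Jak1 (0.92) and C230091D08Rik (0.92), and for Cd226 Fgl2 (0.91), Fam49a (0.89) and Trim30d (0.89). Tnfrsf9 went with Plek2 (0.96), Ccr7 (0.96) and Cks2 (0.95), Cd40 with Cd86 (0.92), Clec4a2 (0.91) and H2-Aa (0.90), and Icos with Il12b (0.89), Il2rb (0.88) and Cd4 (0.88). For Icosl the first was A530032D15Rik (0.86), for Cd27 Ms4a4b (0.81) and for Cd40lg Ipcef1 (0.67), which in counts this low is weak. After each group's mean was taken off, Fgl2 was still first for Cd226 (0.88), and Cd28 went with Wdr44 (0.92) and Arhgef6 (0.91). Icos then went with Ms4a4b (0.79) and Cd4 (0.74), and Tnfrsf9 with Clec4n (0.87), Ccr7 (0.87) and S100a9 (0.87). Between members, Cd28 and Cd226 had a correlation of 0.86 across libraries and 0.71 within groups, and Cd28 and Tnfrsf9 one of -0.45 in both.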

How the data were processed

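RNA-seq of peritoneal tissue from 29 mice was compared over 7 groups of treatment, day and outcome. The deposited table held raw read counts per gene and library, which the authors made from reads aligned to mm10. The submitters' processing notes name STAR (2.7.0f) and featureCounts (1.6.4), while the study's methods name STAR and HTSeq, and which counter made the table is not settled here. The notes and methods also name different RNA extraction kits. Library totals were 25989217 to 31219650 counts, and no column of the table was left out. Positions were taken from GENCODE annotation of GRCm38, and promoter sequences from RefSeq, GRCm38.p6.

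Each comparison was fitted across all genes that passed edgeR's filter on low counts (filterByExpr), on its own groups, with TMM scaling and the quasi-likelihood test (edgeR 4.0.16 in R 4.3.3), two-sided, and p-values were adjusted by Benjamini-Hochberg over every gene in the fit. A gene was called at an adjusted p under 0.05. The comparison across days was an interaction term. CPM values were scaled over all 29 libraries, and groups were called non-overlapping on the values of the comparison's own fit. Ratios to Cd3 (Cd3d, Cd3e and Cd3g summed) and to Ptprc were log2 of counts plus 0.5. A floor of 3 counts was used where a group had none, which covers counting error only. The fits were tested on simulated counts in which 200 genes were changed: at 4-fold, 92% were recovered for dual ICI against untreated mice at day 21 and 75% for uncured against untreated mice at day 35, and at 2-fold 46.5% and 0%.

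Alternatives were DESeq2 (1.42.0), upper-quartile scaling, no scaling beyond library totals, no filter, at least 10 counts in every library, skeletal muscle markers left out, all 29 libraries in 1 fit, the replicate number as a block, and each mouse left out in turn. Named genes were the 10 members, those of the partner and signalling lists that were called or were direct partners of a member, and the 3 genes most correlated with each member. Members and lists were chosen with earlier results of these data known. No pair of libraries within a group differed by as little as sampling noise.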

Additional observations from a re-analysis of the deposited data

Results flagged for a closer look

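In groups of 4 or 5 mice, the highest or lowest mouse of a member stood apart from the rest of its group in 7 of 50 groups looked at, by Dixon's ratio at the 95% level, which chance gives in about 1 in 20 groups. Cd28 was at 10.3 CPM in anti-PD1 mouse 5, where the next mouse had 2.73 CPM, and Cd226 was at 2.39 CPM in the same mouse, the next having 1.09 CPM. Tnfrsf9 was at 4.73 CPM in untreated mouse 4 of day 35, above 3.34 CPM in the next. The other 4 were in genes of a few counts. Cd40lg was at 0.321 CPM in anti-PD1 mouse 4 (next 0.0917), Cd70 at 0.124 CPM in dual ICI mouse 1 of day 21 (next 0.0331) and at 0.189 CPM in anti-CTLA4 mouse 3 (next 0.0747), and Tnfsf4 was lowest, at 0.147 CPM, in untreated mouse 5 of day 35 (next 0.199).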

How the results depend on the processing

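Over the 10 comparisons, 72 results of single members were tested and 13 called. Of 1233 values under alternatives, 1199 kept their direction and side of the threshold or were uncalled throughout, 22 lost and 12 gained the call, and no called value turned its sign. Among these, 53 uncalled values, in 19 results, had another sign. Scaling by library totals alone was chosen after seeing the data.

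The number of members called moved as follows. At day 21, with 0 called, DESeq2 called 2 (Cd226 and Cd40) and the leave-one-out fits 0 to 1. With at least 10 counts in every library, 2 members were called for cured against untreated mice and 3 for uncured against cured mice, since Icos, Tnfrsf9 and Cd27 were no longer tested. For uncured mice against dual ICI at day 21, DESeq2 called 2, scaling by totals 0, the fit of all 29 libraries 0, and the leave-one-out fits 0 to 2. With all 5 dual ICI mice at day 35 as 1 group DESeq2 called 1, and for untreated mice between days the leave-one-out fits called 1 to 2. Leaving out 1 mouse gave 3 to 5 calls for cured against untreated and 5 to 6 for uncured against cured mice. The cause of these changes was not tested except where fewer members were tested.

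Mice share title numbers across groups, but these gave no sign of pairing. Correlations of same-numbered deviations ran from -0.65 to 0.64, and in no comparison did every mouse correlate best with its own number. Dual ICI mice at day 21, mouse 1 apart, carry other numbers in their column names than in their titles. Title numbers may therefore not identify pairs there. The 2 uncured mice deviate from their mean in exactly opposite ways, so their correlations could not show pairing. With the replicate number as a block, 1 member was called at day 21 (Cd226, adjusted p = 0.0438 in edgeR), 3 for cured mice (Icos lost, 0.0521) and 2 for uncured mice against day 21 (Cd28 gained, 0.0469), with genes called going from 89 to 209, from 7067 to 4016 and from 857 to 3192. These block fits follow the title numbers and show how the calls move, not that mice were paired. No block was possible for uncured against cured mice because they share no number.

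The precision is lowest for the 2 uncured mice and for Cd40lg, Cd70 and Tnfsf4, with 0 to 13 counts per library. Day and sequencing series, and outcome and tissue makeup, cannot be told apart.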
